A study of Mus musculus with 12 samples.

Results

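The G1 and S cyclins and their kinases were measured here as 10 genes of the 18193 named on the arrays: the D cyclins Ccnd1, Ccnd2 and Ccnd3, the E cyclins Ccne1 and Ccne2, cyclin A2 (Ccna2), and the cyclin-dependent kinases Cdk1, Cdk2, Cdk4 and Cdk6. They were chosen by name and all 10 were found. Where a gene had several probe sets, the brightest on average across the 12 arrays stood for it, and together the genes have 27 of the 45037 probe sets tested. RNA of MEFs, fibroblasts cultured from mouse embryos, was hybridised to Affymetrix MOE430 2.0 arrays, with 4 groups of 3 arrays. TKO-Ras MEFs lacked Rb1, Rbl1 (p107) and Rbl2 (p130) and carried RasG12D. TKO MEFs lacked the same 3 genes without the Ras mutation, Rb1KO MEFs were labelled as lacking Rb1 alone, and WT MEFs were wild type. All groups were left untreated and were harvested while growing exponentially. How the Ras mutation was introduced, and whether each line is a single clone, is not given in the sources used here. Replicates are labelled biological, but it is not stated if each had its own embryo or culture, so p-values measure the spread between these RNA samples, which may be technical.

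D cyclins are made in response to growth signals and bind CDK4 or CDK6, and these complexes begin the phosphorylation of the Rb protein that frees E2F transcription factors. Cyclin E with CDK2 then drives entry into S phase, and cyclin A2 acts with CDK2 during DNA replication and with CDK1 on the way into mitosis. The genes of cyclin E, cyclin A2 and CDK1 are textbook targets of E2F factors or of the repressor complexes that hold the Rb relatives p107 and p130, and Ccnd1 is a textbook target of Ras signalling.

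The values are log2 numbers, so a difference of 1 is a doubling, and the level of a probe set is not compared with that of another. A level of 5.13 was taken as background, since 95% of the values of 44 olfactory receptor probe sets, of genes best known from the nose, lay at or under it, and all 10 genes lay above it on all 12 arrays. Rb1 averaged 7.56 ± 0.11 in TKO-Ras, 7.14 ± 0.25 in TKO, 7.58 ± 0.13 in Rb1KO and 8.50 ± 0.19 in WT MEFs (SD, n = 3 each). Rbl1 was at background in TKO-Ras and TKO MEFs and above it in Rb1KO and WT MEFs. Rbl2, which the Rb1KO label does not name as deleted, was at background on all 3 arrays labelled Rb1KO. It averaged 5.03 ± 0.39 in TKO-Ras, 5.45 ± 0.23 in TKO, 4.18 ± 0.34 in Rb1KO and 7.72 ± 0.18 in WT MEFs (SD, n = 3 each), and it was above background on 2 of 3 TKO-Ras and 3 of 3 TKO arrays. Of the 8 fibroblast markers checked, 7 were above background on all TKO-Ras and TKO arrays and 8 on all Rb1KO and WT arrays. Thy1 was the marker at background. Summed over the 8 markers, the log2 values lay between 90.98 and 92.56 in TKO-Ras, 96.51 and 97.31 in TKO, 95.10 and 96.06 in Rb1KO, and 106.3 and 107.7 in WT MEFs. Markers of leukocytes, endothelium, epithelium and muscle had 1 or 2 of 4 above background in every group, and neural markers had 3 of 4 in TKO-Ras and TKO and 4 of 4 in Rb1KO and WT MEFs. The part of these differences in the results was not tested. WT replicate 3 correlated least with its own group across probe sets (mean r = 0.974, against 0.982 to 0.994 for the other arrays).

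Across the 10 genes the comparisons with WT gave rises and falls side by side. In TKO over WT, 4 genes rose and 2 fell at an adjusted p under 0.05 in limma. Over all 45037 probe sets 10.5% rose and 9.01% fell. Of all probe sets 38.4% were at or below background on every array, whereas the 10 genes lay above it on all arrays. The shares among probe sets above background are not given, here or below. The median log2 fold change was 0.27 over the 10 genes and 0.03 over all probe sets. In Rb1KO over WT 4 rose and 2 fell as well, where 12.5% of all probe sets rose and 10.1% fell, and the medians were 0.39 over the genes and 0.07 over all probe sets. In TKO-Ras over WT 4 rose and 2 fell, beside 15.5% and 12.4% of all probe sets, with medians of 0.21 and 0.09. These 3 comparisons share the WT arrays and are not independent of each other. Between the knockout groups, 1 gene rose and 0 fell in TKO over Rb1KO (Ccnd2), where 4.19% of all probe sets rose and 2.99% fell, and the medians were -0.21 and -0.04. At an unadjusted p under 0.05, 0 members were lower in that comparison on the probe set that stood for each. With RasG12D, in TKO-Ras over TKO, 1 rose (Ccnd1) and 1 fell (Ccnd2), where 2.54% of all probe sets rose and 3.13% fell. The medians were 0.0038 and 0.04. In TKO-Ras over Rb1KO 0 rose and 1 fell (Cdk2), where 4.44% of all probe sets rose and 4.35% fell. There Ccnd1 and Ccnd2 were higher at unadjusted p-values of 0.0044 and 0.023 in limma.

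**Figure D1:**
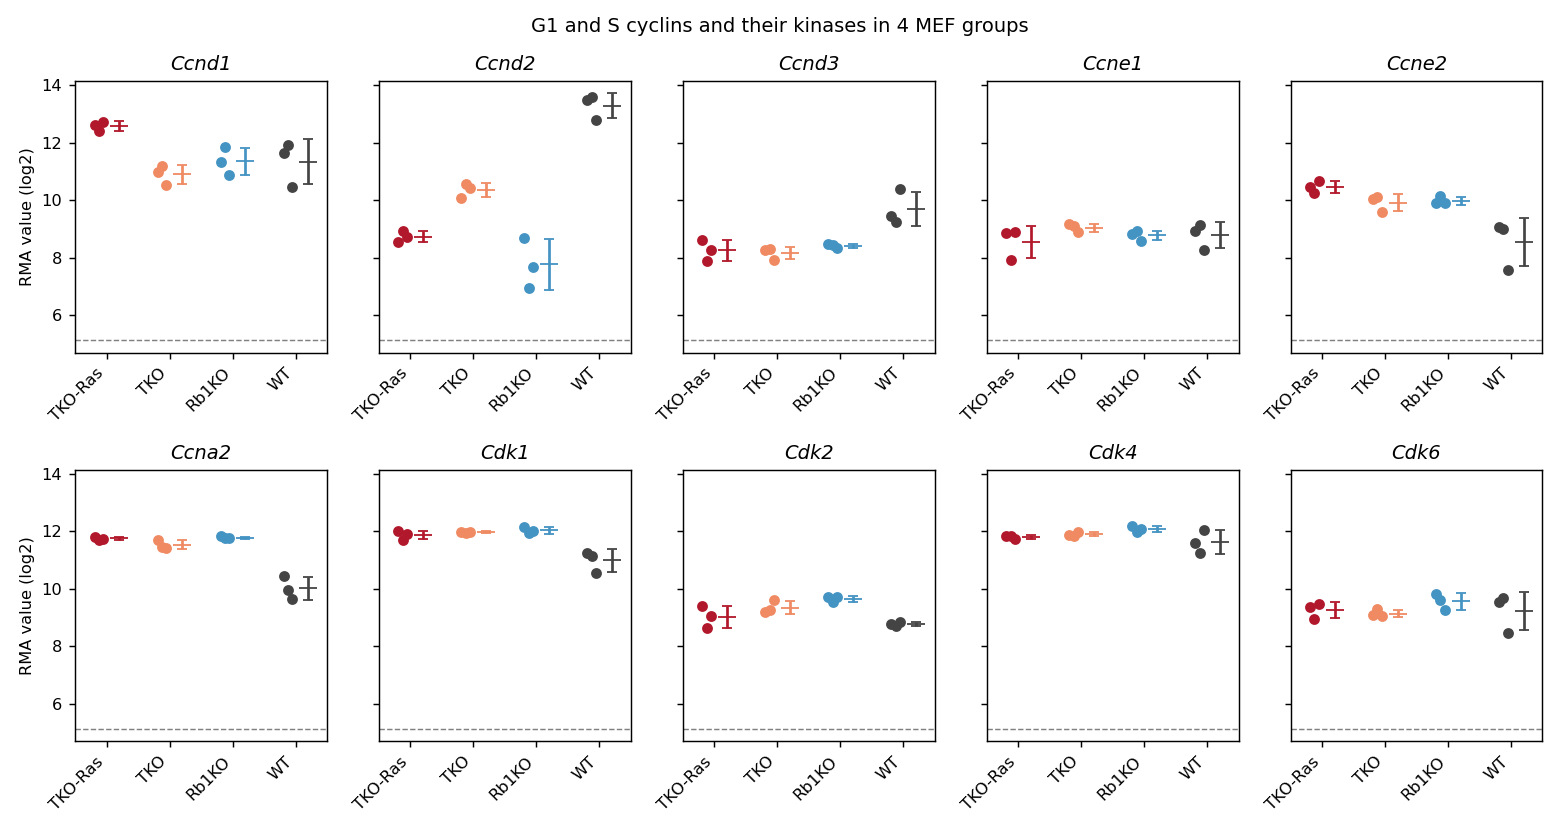
RMA values (log2) of the 10 genes on each array, with TKO-Ras, TKO, Rb1KO and WT MEFs from left to right in every panel. Points are arrays, the bar beside them is the mean with 1 SD (n = 3), and the dashed line is the background level of 5.13. Ccnd2 stands highest on the WT arrays (12.78 to 13.57), and Ccna2 lowest there (9.64 to 10.45).

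Ccnd2 had the widest range of the 10 genes. It measured 8.54, 8.92 and 8.73 in TKO-Ras MEFs, 10.08, 10.57 and 10.42 in TKO MEFs, 8.69, 6.94 and 7.69 in Rb1KO MEFs, and 13.49, 13.57 and 12.78 in WT MEFs. Every WT array lay above every other array, every TKO array lay above every TKO-Ras and Rb1KO array, and the TKO-Ras and Rb1KO arrays overlapped. The group means spanned 5.50 on the log2 scale, 10.7 times the SD pooled within groups. The log2 fold change was -2.92 (SE 0.36, a 7.58-fold fall, adjusted p = 2.05e-04 from limma) in TKO over WT and -5.50 (SE 0.36, a 45.4-fold fall, adjusted p = 2.49e-06) in Rb1KO over WT. In TKO-Ras over WT it was -4.55 (a 23.4-fold fall, adjusted p = 5.39e-06). Ccnd2 was lower in all 3 mutant groups, in which Rb1 and Rbl2 both read lower than in WT, though their part in this was not tested. Ccnd2 was lowered least in TKO MEFs, where it was 5.99-fold higher than in Rb1KO MEFs (log2 fold change 2.58, adjusted p = 0.0011). It fell by 1.63 in TKO-Ras over TKO on the log2 scale (3.09-fold, adjusted p = 0.023), a call lost without TKO replicate 2 (adjusted p = 0.093), TKO replicate 3 (0.077), TKO-Ras replicate 1 (0.087) or TKO-Ras replicate 3 (0.075). Of its neighbours in the order WT, TKO, TKO-Ras, Rb1KO, the last pair differed by 0.96 in TKO-Ras over Rb1KO (95% interval 0.16 to 1.75, adjusted p = 0.15), a difference that passed only without Rb1KO replicate 1 (1.42, adjusted p = 0.014).

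Ccnd1 differed from Ccnd2 in where it moved. It measured 12.60, 12.40 and 12.72 in TKO-Ras MEFs, 10.99, 11.17 and 10.54 in TKO MEFs, 11.35, 11.84 and 10.89 in Rb1KO MEFs, and 11.66, 11.91 and 10.47 in WT MEFs. The 3 TKO-Ras arrays stood above the other 9 arrays, which overlapped. Ccnd1 rose in TKO-Ras over TKO by 1.67 on the log2 scale (SE 0.34, 95% interval 0.92 to 2.42, a 3.19-fold rise, adjusted p = 0.016 from limma), and in TKO-Ras over WT it was 1.23 (a 2.34-fold rise, adjusted p = 0.020). The call over TKO was lost without TKO replicate 3 (adjusted p = 0.067), TKO-Ras replicate 1 (0.056) or TKO-Ras replicate 3 (0.063), and the call over WT without TKO-Ras replicate 1 (0.053) or 3 (0.064). Against Rb1KO MEFs it was 1.22 with an adjusted p of 0.050, just outside the threshold, and it passed in 8 of 22 alternatives. In TKO over WT the change was -0.44 (95% interval -1.19 to 0.31, adjusted p = 0.43). WT replicate 3 lay 1.31 below the mean of the other WT arrays, and without it the change in TKO-Ras over WT was 0.79, still past the threshold, and that in TKO over WT was -0.88 (adjusted p = 0.028). The change in Rb1KO over WT was 0.01 (95% interval -0.74 to 0.77), and -0.42 without WT replicate 3 (adjusted p = 0.27).

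Ccnd3, the D cyclin best known from lymphocytes and muscle, was lower in all 3 mutant groups and did not separate them. It measured 8.62, 7.88 and 8.27 in TKO-Ras MEFs, 8.26, 8.30 and 7.91 in TKO MEFs, 8.49, 8.44 and 8.34 in Rb1KO MEFs, and 9.45, 9.26 and 10.38 in WT MEFs. Every WT array lay above every mutant array, and the highest value was that of WT replicate 3. Ccnd3 had a log2 fold change of -1.54 (SE 0.27, adjusted p = 0.0018 from limma) in TKO over WT, -1.28 (adjusted p = 0.0048) in Rb1KO over WT and -1.44 (adjusted p = 0.0019) in TKO-Ras over WT. Among the mutant groups the differences ran from -0.26 to 0.10, with the lowest adjusted p at 0.66.

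The D cyclins are covered by 13 probe sets, and these did not all behave alike. All 7 probe sets of Ccnd2 were lower in TKO over WT (log2 fold changes -3.18 to -2.20), in Rb1KO over WT and in TKO-Ras over WT (-4.71 to -3.68). All 7 were higher in TKO over Rb1KO. The dimmest of the 7 was at background on the Rb1KO arrays, where it gives bounds only, at least 12.2-fold lower in Rb1KO over WT and at least 2.65-fold higher in TKO over Rb1KO. The other 6 lay between -5.61 and -5.17 in Rb1KO over WT and between 2.17 and 2.58 in TKO over Rb1KO. In TKO-Ras over TKO 5 of the 7 were lower, and the values of all 7 lay between -1.63 and -1.27. Of the 3 probe sets of Ccnd1, 3 were higher in TKO-Ras over TKO (1.66 to 1.87) and 2 in TKO-Ras over WT. For Ccnd3 the fall rests on 1 of 3 probe sets. Of the others, the dimmest was below background on all 12 arrays, and the middle probe set passed in no comparison, at 6.15 ± 0.13 in TKO-Ras, 6.08 ± 0.17 in TKO, 6.25 ± 0.17 in Rb1KO and 6.15 ± 0.02 in WT MEFs (SD, n = 3 each).

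The E cyclins differed from each other. Ccne2 measured 10.47, 10.25 and 10.67 in TKO-Ras MEFs, 10.05, 10.11 and 9.58 in TKO MEFs, 9.89, 10.14 and 9.91 in Rb1KO MEFs, and 9.06, 9.02 and 7.58 in WT MEFs. All mutant arrays lay above all WT arrays, and the TKO-Ras arrays lay above those of TKO and Rb1KO. The log2 fold change was 1.91 (SE 0.33, a 3.77-fold rise, adjusted p = 0.0011 from limma) in TKO-Ras over WT, 1.36 (2.57-fold, adjusted p = 0.012) in TKO over WT and 1.43 (2.70-fold, adjusted p = 0.0081) in Rb1KO over WT. Without WT replicate 3, the lowest array, these were 1.43, 0.88 and 0.95 in the same order, and all passed. The call in TKO over WT was lost with only these groups in the fit (adjusted p = 0.078) and without TKO replicate 2 (adjusted p = 0.051). In TKO-Ras over TKO the difference was 0.55 (95% interval -0.17 to 1.27, adjusted p = 0.41), and it passed without WT replicate 3 (adjusted p = 0.049). Ccne1, the other E cyclin, measured 8.87, 7.91 and 8.89 in TKO-Ras MEFs, 9.16, 9.09 and 8.89 in TKO MEFs, 8.82, 8.92 and 8.60 in Rb1KO MEFs, and 8.93, 9.14 and 8.28 in WT MEFs. On this probe set the 4 groups overlapped, and no comparison of Ccne1 passed the test. Its log2 fold change was 0.26 (95% interval -0.33 to 0.85) in TKO over WT, -0.0035 (-0.59 to 0.59) in Rb1KO over WT and -0.23 (-0.82 to 0.36) in TKO-Ras over WT. The probe set of Ccne1 carries the suffix of sets that can also read other transcripts, and its other probe set, which carries no such suffix, gave 0.28 in TKO over WT. In TKO-Ras over TKO the 2 sets gave -0.49 (adjusted p = 0.36 from limma) and -0.75 (adjusted p = 0.19) in that order. On the set without the suffix every TKO array lay above every TKO-Ras and Rb1KO array. Its difference in TKO over Rb1KO was 0.42 (adjusted p = 0.48).

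Among the genes that rose, cyclin A2 had the widest range of group means beside its spread, 8.05 times the pooled SD. Ccna2 measured 11.82, 11.71 and 11.74 in TKO-Ras MEFs, 11.71, 11.46 and 11.43 in TKO MEFs, 11.83, 11.77 and 11.76 in Rb1KO MEFs, and 10.45, 9.97 and 9.64 in WT MEFs. The mutant arrays all lay between 11.43 and 11.83, above every WT array. The log2 fold change was 1.73 (SE 0.17, a 3.33-fold rise, adjusted p = 2.12e-05 from limma) in TKO-Ras over WT, 1.51 (2.85-fold, adjusted p = 9.26e-05) in TKO over WT and 1.76 (3.39-fold, adjusted p = 2.73e-05) in Rb1KO over WT. Both of its probe sets rose in all 3 comparisons. The mutant groups differed from each other by -0.25 to 0.22, with the lowest adjusted p at 0.46. On the other probe set the Rb1KO arrays lay above all TKO and TKO-Ras arrays. There the difference was -0.33 in TKO over Rb1KO (adjusted p = 0.19 from limma) and -0.30 in TKO-Ras over Rb1KO (adjusted p = 0.23).

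Among the kinases, Cdk1, the mitotic kinase, rose in the same groups as Ccna2. It measured 12.01, 11.71 and 11.91 in TKO-Ras MEFs, 11.98, 11.93 and 11.99 in TKO MEFs, 12.16, 11.94 and 11.997 in Rb1KO MEFs, and 11.26, 11.15 and 10.55 in WT MEFs. All mutant arrays lay above all WT arrays. Cdk1 had a log2 fold change of 0.89 (1.85-fold, adjusted p = 0.0020 from limma) in TKO-Ras over WT, 0.98 (1.97-fold, adjusted p = 0.0016) in TKO over WT and 1.05 (2.06-fold, adjusted p = 8.53e-04) in Rb1KO over WT. Cdk2, the partner of cyclins E and A2, measured 9.40, 8.64 and 9.05 in TKO-Ras MEFs, 9.18, 9.26 and 9.60 in TKO MEFs, 9.73, 9.53 and 9.71 in Rb1KO MEFs, and 8.79, 8.71 and 8.86 in WT MEFs. The TKO and Rb1KO arrays lay above the WT arrays, and the TKO-Ras arrays overlapped them. Cdk2 rose by 0.87 (SE 0.18, adjusted p = 0.0040) in Rb1KO over WT and by 0.56 (adjusted p = 0.044) in TKO over WT, and in TKO-Ras over WT the change was 0.24 (95% interval -0.14 to 0.63, adjusted p = 0.33). It fell by 0.63 in TKO-Ras over Rb1KO (adjusted p = 0.049). The calls in TKO over WT and in TKO-Ras over Rb1KO were near the threshold and were lost in 14 of 22 alternatives each. That count includes the leaving out of any of the WT or TKO arrays for the comparison of TKO with WT.

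Cdk4 and Cdk6, the partners of the D cyclins, passed no test on their brightest probe sets. Cdk4 measured 11.84, 11.85 and 11.73 in TKO-Ras MEFs, 11.88, 11.85 and 11.99 in TKO MEFs, 12.20, 11.96 and 12.08 in Rb1KO MEFs, and 11.61, 11.24 and 12.06 in WT MEFs. WT replicate 3 lay within the mutant arrays and the other WT arrays below them. The log2 fold change was 0.17 (95% interval -0.20 to 0.54) in TKO-Ras over WT, 0.27 (-0.10 to 0.64) in TKO over WT and 0.45 (0.08 to 0.81, adjusted p = 0.081 from limma) in Rb1KO over WT. Without WT replicate 3 all 3 passed, at 0.38 (adjusted p = 0.046), 0.48 (adjusted p = 0.020) and 0.66 (adjusted p = 0.0029) in that order. Cdk6 measured 9.37, 8.95 and 9.46 in TKO-Ras MEFs, 9.08, 9.29 and 9.05 in TKO MEFs, 9.84, 9.62 and 9.26 in Rb1KO MEFs, and 9.56, 9.67 and 8.47 in WT MEFs. All 4 groups overlapped, and the span of the group means, 0.43, was 1.10 times the pooled SD, the lowest such ratio of the 10 genes. Its log2 fold change was 0.02 (95% interval -0.59 to 0.64) in TKO-Ras over WT, -0.10 (-0.71 to 0.52) in TKO over WT and 0.33 (-0.28 to 0.95) in Rb1KO over WT. A dimmer probe set of Cdk6, near background, was higher by 0.75 in Rb1KO over WT and passed there (adjusted p = 0.027 from limma).

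WT replicate 3 stood apart for several of the genes, and it did so in both directions. It lay below the mean of the other WT arrays by 1.46 for Ccne2, 1.31 for Ccnd1 and 1.14 for Cdk6, and above it by 1.03 for Ccnd3 and 0.63 for Cdk4. Without it, 4 genes rose and 3 fell in TKO over WT, 5 rose and 2 fell in Rb1KO over WT, and 5 rose and 2 fell in TKO-Ras over WT. The 4 that rose in TKO over WT then held Cdk4 (adjusted p = 0.020 from limma) and not Cdk2 (adjusted p = 0.053). Shares of all probe sets are not given for these fits, so the counts are no result about the genes as a set. The genes were measured in whole cultures, in which less RNA in every cell and fewer cells that carry it cannot be told apart.

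**Figure D2:**
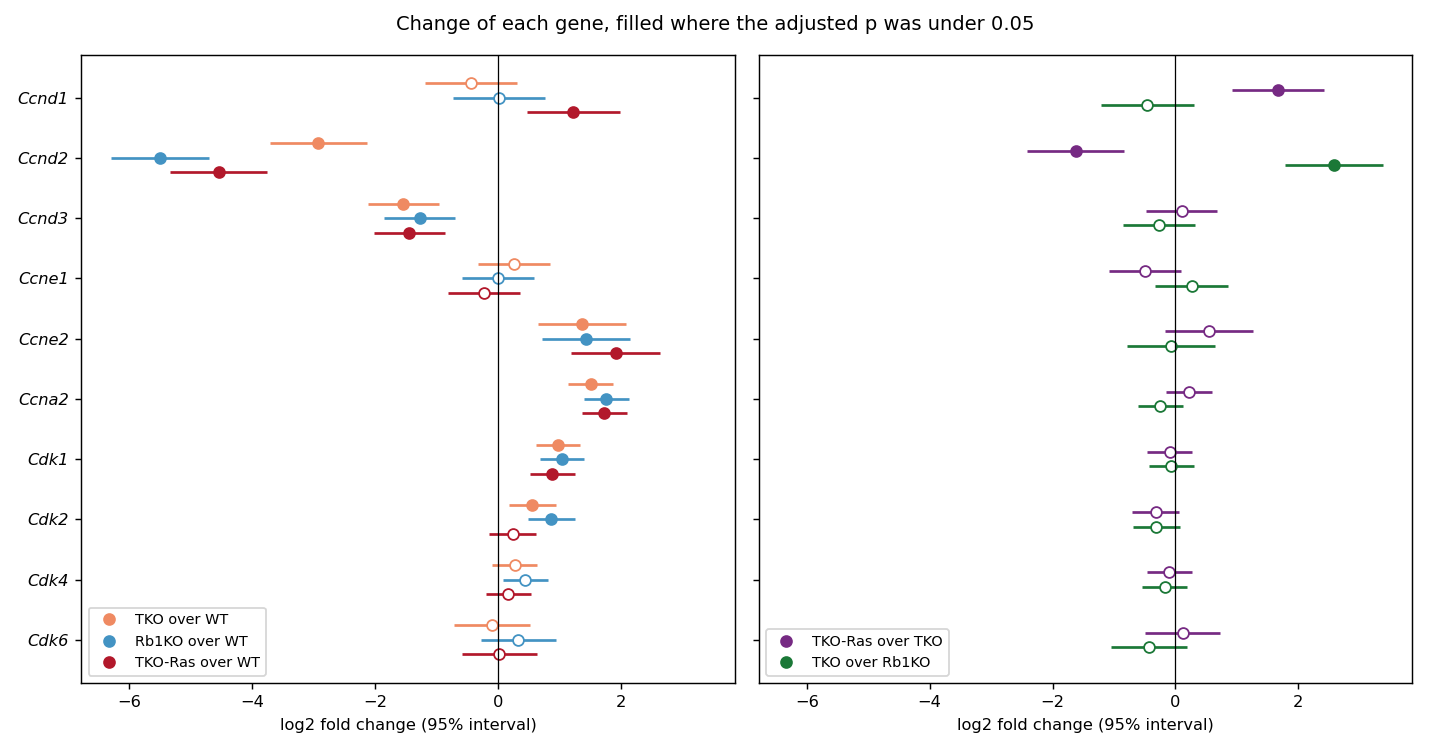
The log2 fold change of each gene with its 95% interval from limma. The left panel holds the comparisons of TKO, Rb1KO and TKO-Ras with WT, which share the WT arrays, and the right panel TKO-Ras over TKO and TKO over Rb1KO. Filled points had an adjusted p under 0.05, and in the right panel these are Ccnd1 (1.67) and Ccnd2 (-1.63) in TKO-Ras over TKO and Ccnd2 (2.58) in TKO over Rb1KO.

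The promoter sequences of 3 of the kinases, Cdk1, Cdk2 and Cdk4, are shown as examples. Cdk6 encodes a related kinase as well, and its window is described below without its sequence. Cdk1 passed the test over WT in all 3 mutant groups, Cdk2 in TKO and Rb1KO, and Cdk4 in none, although the differences between the kinases were not tested, the call of Cdk2 in TKO was lost in 14 of 22 alternatives, and Cdk4 passed in all 3 without WT replicate 3. Each is the 300 bases from 250 before to 50 after the start of the gene in RefSeq (GRCm38.p6), 5′ to 3′ on the strand of the gene. They lie at chr10:69352863-69353162 (Cdk1, minus strand), chr10:128705002-128705301 (Cdk2, minus strand) and chr10:127063285-127063584 (Cdk4, plus strand). Capitals mark matches to E2F words (TTTCGCGC, TTTGGCGC, TTTCCCGC or TTTGCCGC), to the cell cycle homology region word TTTGAA, and to the E-box CACGTG, each searched on both strands.
Cdk1: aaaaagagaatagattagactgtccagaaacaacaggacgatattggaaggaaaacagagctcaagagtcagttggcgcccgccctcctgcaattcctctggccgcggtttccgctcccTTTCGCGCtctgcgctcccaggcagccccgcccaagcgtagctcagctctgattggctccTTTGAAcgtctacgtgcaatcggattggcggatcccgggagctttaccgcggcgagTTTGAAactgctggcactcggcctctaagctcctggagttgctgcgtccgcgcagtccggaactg
Cdk2: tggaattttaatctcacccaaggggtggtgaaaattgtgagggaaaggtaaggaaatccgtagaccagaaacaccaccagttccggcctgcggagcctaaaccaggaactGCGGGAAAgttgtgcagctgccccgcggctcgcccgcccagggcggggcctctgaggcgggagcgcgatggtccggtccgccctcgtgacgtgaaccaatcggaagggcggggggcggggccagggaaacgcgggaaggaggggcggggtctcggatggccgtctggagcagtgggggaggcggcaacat
Cdk4: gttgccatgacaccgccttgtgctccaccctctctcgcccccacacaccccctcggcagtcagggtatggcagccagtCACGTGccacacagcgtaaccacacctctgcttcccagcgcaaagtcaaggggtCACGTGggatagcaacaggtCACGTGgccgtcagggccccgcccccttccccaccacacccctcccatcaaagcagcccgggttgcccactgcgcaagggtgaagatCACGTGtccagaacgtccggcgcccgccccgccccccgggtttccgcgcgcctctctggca
Cdk1 held the E2F word TTTCGCGC at positions -131 to -124 from its start and TTTGAA at -71 to -66 and at -15 to -10. Cdk2 held GCGGGAAA, the E2F word TTTCCCGC read on the other strand, at -140 to -133. Cdk4 held neither word and 4 E-boxes, the nearest at -11 to -6. Of all 32851 windows of this length, 2.26% held an E2F word, 17.9% held TTTGAA and 7.15% held an E-box. RefSeq windows were found for 6 of the 10 genes, and Ccnd1, Ccnd2, Ccne2 and Ccna2 are named only. The window of Cdk6 held 1 E-box, and those of Ccne1 and both starts of Ccnd3 held none of these words. A match of letters is a description and not a binding site, and binding was not measured.

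Genes that act on these complexes were read from lists of related genes. Of the 15 measured E2F target genes of S phase, among 16 listed, 15 rose in TKO over WT with a median log2 fold change of 1.73, in Rb1KO over WT with 1.63 and in TKO-Ras over WT with 1.77, where 10.5%, 12.5% and 15.5% of all probe sets rose in that order. Cdc6, which loads the replicative helicase, rose by 2.85 in TKO over WT (adjusted p = 7.02e-06 from limma), Tk1, thymidine kinase, by 2.23 (adjusted p = 1.66e-05) and Mcm3, a helicase subunit, by 2.18 (adjusted p = 1.92e-06). The changes of Ccne2 (1.36), Ccna2 (1.51) and Cdk1 (0.98) in that comparison lay below the list's median, and that of Ccne1 (0.26) below its lowest member, E2f1 (0.50). Against the medians of the other comparisons, Ccna2 lay above in Rb1KO over WT (1.76) and Ccne2 in TKO-Ras over WT (1.91). Tyms, thymidylate synthase, was at background in WT MEFs and at least 2.02-fold higher in TKO MEFs, and with it set at that bound the median was 1.69. Of the 15, 14 did not pass in TKO-Ras over TKO, where 2.54% of all probe sets rose and 3.13% fell. Tyms fell there by 0.87 (adjusted p = 0.030 from limma), from a mean of 6.15 in TKO to 5.28 in TKO-Ras MEFs, close to the background of 5.13.

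Of 5 measured mitotic cyclins and CDK subunits, among 6 listed, 4 rose in TKO over WT, where 10.5% of all probe sets did, with a median of 0.62. Ccnb2, cyclin B2, rose by 1.09 (adjusted p = 0.0017 from limma), Ccnf, cyclin F, by 1.01 (adjusted p = 0.0040), and Cks1b and Cks2, small CDK subunits, by 0.62 (adjusted p = 0.0013) and 0.60 (adjusted p = 0.016). Ccnb2 was the member that differed between the knockout groups, at 11.08 ± 0.19 in TKO MEFs against 10.23 ± 0.36 in Rb1KO MEFs (SD, n = 3 each), a log2 fold change of 0.85 (adjusted p = 0.017). Of 8 genes whose products switch the kinases on or off 3 rose in TKO over WT, with a median of 0.23, beside the same 10.5%. These were the activating phosphatases Cdc25b (1.67, adjusted p = 2.09e-04) and Cdc25c (1.02, adjusted p = 5.65e-04) and the inhibiting kinase Wee1 (1.05, adjusted p = 6.63e-04). Of 11 genes of cyclin turnover 4 rose and 0 fell, with a median of 0.17, beside 10.5% and 9.01% of all probe sets and a median of 0.03. They were Skp2, a ligase subunit that targets p27 (0.88, adjusted p = 0.0030), Cdc20 and Fzr1, activators of the anaphase-promoting complex (0.76, adjusted p = 0.017, and 0.50, adjusted p = 0.019), and Fbxo31 (0.64, adjusted p = 0.023). Of these 3 lists 0 members passed in TKO-Ras over TKO, where 2.54% of all probe sets rose and 3.13% fell. In lists this short that is near those shares and is no result about the lists.

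The CDK inhibitors moved apart by gene. Of 7, 2 rose and 2 fell in TKO over WT, with a median of 0.06, where 10.5% of all probe sets rose and 9.01% fell. Cdkn2a, which encodes p16 and p19ARF, averaged 5.46 ± 1.20 in TKO MEFs and 12.08 ± 0.89 in WT MEFs (SD, n = 3 each), a log2 fold change of -6.62 (adjusted p = 1.45e-05 from limma). Its neighbour Cdkn2b, which encodes p15, did not exceed background on any TKO array, a fall of at least 42.6-fold (adjusted p = 3.56e-07). Cdkn2a was above background on 2 of 3 TKO arrays. In TKO-Ras MEFs both genes were at background, and in Rb1KO MEFs they averaged 13.19 ± 0.18 and 10.72 ± 0.68 (SD, n = 3 each). Cdkn2c, p18, rose by 1.59 (adjusted p = 3.29e-04) and Cdkn2d by 0.87 (adjusted p = 1.84e-04) in TKO over WT. In Rb1KO over WT the 1 inhibitor that fell was Cdkn1a, p21, at 8.56 ± 0.32 in Rb1KO MEFs against 11.02 ± 1.15 in WT MEFs (SD, n = 3 each, log2 fold change -2.46, adjusted p = 0.0015). The part of these inhibitors in the levels of the cyclins was not tested. Of 21 other cyclins and CDKs measured, among 22 listed, 2 rose and 2 fell in TKO over WT, with a median of -0.13. These shares are near the 10.5% and 9.01% of all probe sets and are no result about the list. Cdk17 (0.84, adjusted p = 9.35e-04) and Ccnt1 (0.38, adjusted p = 0.024) rose, and Ccnl2 (-0.84, adjusted p = 0.037) and Cdk16 (-0.62, adjusted p = 0.0047) fell. Cdkn2d, Cdkn1a, Cks2, Fzr1, Ccnt1, Pdgfrb and the values of Ccnb2 in TKO over Rb1KO were named after their values were seen.

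Ras pathway outputs, genes that are switched on downstream of Ras, were measured as a list of 12. In TKO-Ras over TKO 7 of them rose and 0 fell, where 2.54% of all probe sets rose and 3.13% fell, and the medians were 1.17 over the list and 0.04 over all probe sets. Dusp4 and Dusp6, phosphatases of the ERK and related kinases, rose by 3.16 (adjusted p = 0.041 from limma) and 2.50 (adjusted p = 0.0074). Spry4, an inhibitor of receptor signalling, was at least 2.99-fold higher in TKO-Ras MEFs than in TKO MEFs, where it was at background (adjusted p = 0.0044). The fibroblast markers moved in the same comparison: 4 of 8 fell and 0 rose, with a median of -0.68. Col1a1, Col1a2 and Col3a1, collagen chains, fell by 2.45 (adjusted p = 2.41e-05), 1.16 (adjusted p = 2.90e-04) and 1.07 (adjusted p = 0.036), and Pdgfrb, a growth factor receptor, by 1.01 (adjusted p = 0.0045). Their part in the change of the cyclins was not tested. In TKO over WT 1 of the 12 Ras pathway outputs rose and 2 fell, beside 10.5% and 9.01% of all probe sets. Fosl1 rose by 1.79 (adjusted p = 0.042), and Etv5 and Spry2 fell by 1.32 (adjusted p = 0.040) and 1.004 (adjusted p = 0.037). Without WT replicate 3, 0 rose and 5 fell in that comparison, and the share of all probe sets without that array is not given. Of the 21 other cyclins and CDKs 2 rose in TKO-Ras over TKO, where 2.54% of all probe sets did: Ccnc, the cyclin of the Mediator kinase (0.86, adjusted p = 0.013), and Cdk11b (0.39, adjusted p = 0.013).

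**Figure D3:**
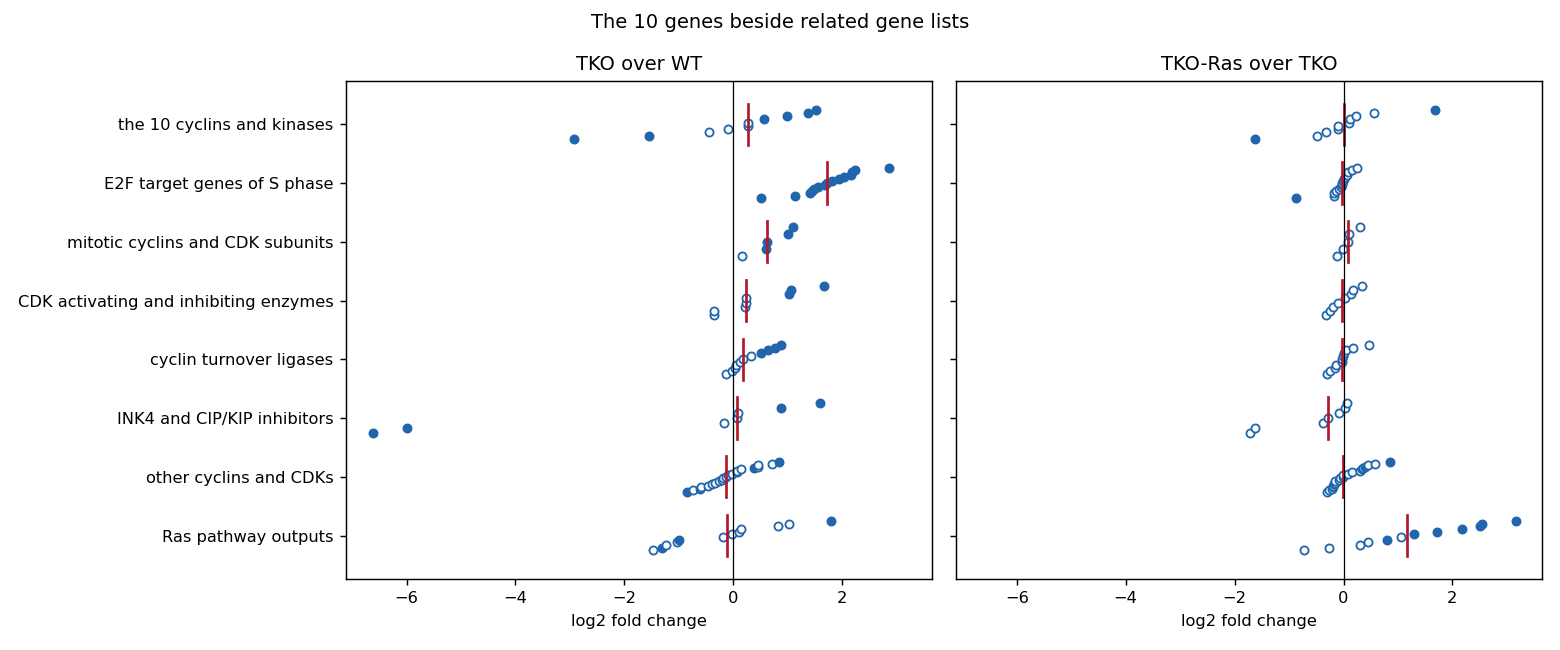
Log2 fold changes of the 10 genes and of the members of 7 related lists in TKO over WT (left) and TKO-Ras over TKO (right). Each point is a gene, filled where the adjusted p was under 0.05, and the vertical bar is the list's median. The E2F targets of S phase lie around 1.73 in TKO over WT and around 0 (median -0.03) in TKO-Ras over TKO, and the Ras pathway outputs have medians of -0.11 and 1.17 in the same order.

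For the 6 genes whose group means spanned 1 or more on the log2 scale, the genes with the most similar profile over the 12 arrays were named from 3480 candidates by Pearson's r, given as a description. The arrays share their groups, so r reflects differences between groups as well as between arrays. For Ccnd1 they were Dusp6 (r = 0.965), Hmga2, a chromatin protein (0.948), and Mtmr10 (0.944), and over the arrays without WT these were 0.979, 0.973 and 0.956. Dusp6 averaged 10.42 ± 0.09 in TKO-Ras, 7.92 ± 0.37 in TKO, 8.52 ± 0.86 in Rb1KO and 8.95 ± 0.88 in WT MEFs (SD, n = 3 each). For Ccnd2 they were Gria3, a glutamate receptor subunit (0.981), Rabac1 (0.978) and Aga, a lysosomal enzyme (0.974), and 0.916, 0.915 and 0.903 without WT. Gria3 was at background on every TKO-Ras and Rb1KO array and averaged 5.52 in TKO MEFs. Its r without WT thus rests largely on values at background. For Ccnd3 they were Sytl4 (0.954), Scara3 (0.954) and Srpx2 (0.945), mostly by a difference between WT and the other groups. Without WT these were 0.245, 0.617 and -0.088. Sytl4 and Srpx2 were at background on every mutant array, so no order among the mutant arrays can be read from them. Scara3 was at background on every TKO-Ras and TKO array and above it on 2 of 3 Rb1KO arrays (4.94 to 5.44 over the 3). For Ccne2 they were Smc2, a condensin subunit (0.977), Tbrg4 (0.975) and Prpf31, a splicing factor (0.975), and 0.876, 0.894 and 0.823 without WT. For Ccna2 they were Nup43, a nucleoporin (0.994), Cdca5, a cohesin regulator (0.993), and Tdp1, a DNA repair enzyme (0.991). Without WT these fell to 0.750, 0.777 and 0.886. For Cdk1 they were Topbp1, a replication checkpoint protein (0.991), Timm50, of mitochondrial import (0.983), and Birc5, survivin (0.983). Without WT these fell to 0.824, 0.689 and 0.866. Birc5 averaged 11.89 ± 0.13 in TKO-Ras, 11.94 ± 0.13 in TKO, 12.06 ± 0.07 in Rb1KO and 10.19 ± 0.42 in WT MEFs (SD, n = 3 each). The profiles of Ccnd1 and Ccna2 were of different kinds: for Ccnd1 the TKO-Ras arrays stood apart from a spread of the other groups, and for Ccna2 the WT arrays stood apart from all others. Dusp6 and Cdca5 showed the same patterns, but they were picked for their likeness and so add nothing to this.

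**Figure D4:**
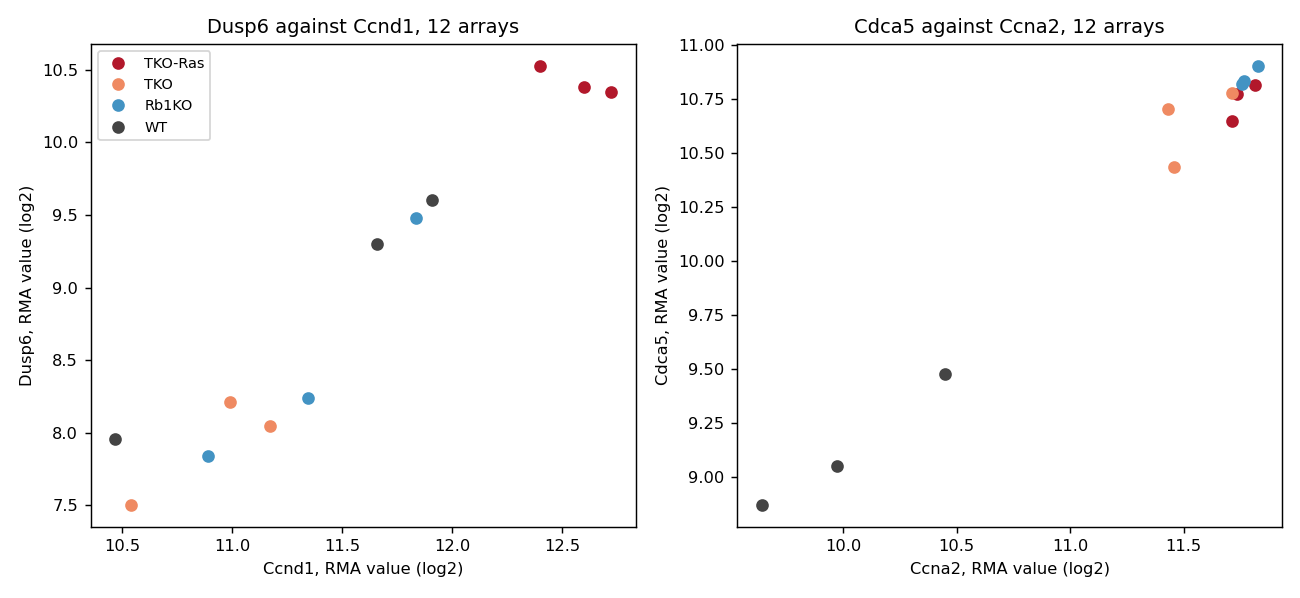
RMA values (log2) of Dusp6 against Ccnd1 (left) and of Cdca5 against Ccna2 (right) on the 12 arrays, coloured by group. On the left the 3 TKO-Ras arrays are at the top (Dusp6 10.35 to 10.53) and the other groups mix, and on the right the 3 WT arrays lie apart at the bottom (Cdca5 8.87 to 9.48).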

How the data were processed

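The authors prepared each array from 100 ng of total RNA and used RMA in Partek 6.5 to background-correct, normalize and summarize the scans, as their methods and the submitters' processing notes give it. The deposited values are log2 numbers, a scale read from their range of 2.18 to 14.92, and the genome build is not given in the sources used here. The 64 control probe sets were left out. The other 45037 were fitted in R 4.3.3 by lmFit and eBayes of limma 3.58.1 (12 arrays, 4 groups, 8 residual degrees of freedom), 2-sided, with Benjamini-Hochberg adjustment over all of them for each of 6 comparisons. A probe set was called at an adjusted p under 0.05. The fit was tested on simulated data. A gene at or below background on every array of a group is given as a lower bound, with the background level or the group's own value, if higher, as its floor. The number of arrays limits the precision.

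The members and lists were chosen with earlier results of these data known. The named genes are the 10 members, the Rb family, in each list the 3 genes past the threshold that moved most in TKO over WT and in TKO-Ras over TKO, and the 3 most similar genes per member. Alternatives were a trended and robust variance prior, the methods' contrasts without moderation, weighting of arrays, a block for replicate numbers, fits of the compared groups alone, median centring, cyclic loess, a background filter, other choices of probe set and each array left out. Same-numbered arrays of different groups correlated at r = -0.21 to 0.31 in their deviations from the group means, with 8 of 18 pairs over 0.1. Arrays with different numbers were not compared in this way, so these values cannot show if the numbers pair the samples. The main fit did not pair them. The package statmod 1.5.0 was also used.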

Additional observations from a re-analysis of the deposited data

How the results depend on the processing

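For the 10 genes in 6 comparisons, each under 22 alternatives, 1233 values kept their direction and side of the threshold, 43 no longer passed, 15 newly passed and 29 changed sign. Of the sign changes 1 was of a called result: Cdk2 in TKO over WT was -0.0505 on probe sets without a suffix, where it is read from a probe set below background on all arrays, and its rise in Rb1KO over WT was 0.016 there. The cause of the other changes was not tested. In TKO-Ras over TKO the number of genes called was 2, and 0 with the methods' contrasts, where the adjusted p was 0.063 for Ccnd1 and 0.081 for Ccnd2. It lay between 0 and 3 with each array left out, being 1 without TKO replicate 2, 0 without TKO replicate 3, TKO-Ras replicate 1 or TKO-Ras replicate 3, and 3 without WT replicate 3. In TKO-Ras over Rb1KO it was 1, and 0 with the intensity trend, with the methods' contrasts and on probe sets without a suffix. It was 2 there with array weights, with the replicate block and on probe sets above background, and between 0 and 2 with each array left out. The replicate block changed no other call. Leaving out each array, 4 to 7 genes were called in TKO over WT, 6 to 7 in Rb1KO over WT, 5 to 7 in TKO-Ras over WT and 1 in TKO over Rb1KO.

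Ccnd1 in TKO-Ras over WT no longer passed with the methods' contrasts (adjusted p = 0.056), with only these groups in the fit (0.057) or without TKO-Ras replicate 1 or 3 (0.053 and 0.064), from limma except for the methods' contrasts. The other signs that changed were of results that did not pass. With array weights Ccnd1 was -0.37 in Rb1KO over WT, Ccne2 0.018 in TKO over Rb1KO and Cdk6 -0.17 in TKO-Ras over WT. With cyclic loess Ccnd1 was -0.14 in Rb1KO over WT and Cdk6 -0.068 in TKO-Ras over WT. With the mean of all probe sets Cdk6 was 0.048 in TKO over WT and Ccnd3 -0.013 in TKO-Ras over TKO. With median centring Ccne1 was 0.011 in Rb1KO over WT, and on probe sets without a suffix Cdk2 was -0.057 in TKO-Ras over WT. With each array left out, the values that crossed 0 ran from -0.48 to 0.12 for Cdk6 in TKO over WT. In Rb1KO over WT they ran from -0.42 to 0.29 for Ccnd1, -0.25 to 0.18 for Ccne1 and -0.048 to 0.55 for Cdk6. In TKO over Rb1KO they ran from -0.17 to 0.10 for Ccne2, and in TKO-Ras over TKO from -0.084 to 0.29 for Ccnd3. In TKO-Ras over WT they ran from -0.48 to 0.092 for Ccne1, -0.028 to 0.38 for Cdk4 and -0.36 to 0.24 for Cdk6. In TKO-Ras over Rb1KO they ran from -0.35 to 0.024 for Ccnd3 and -0.39 to 0.10 for Ccne1. The counts of the related lists without WT replicate 3 were added after seeing the data.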
